A study of Homo sapiens with 15 samples.

Results

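The unfolded protein response genes described here are 10 genes, HSPA5, HSP90B1, XBP1, DNAJB9, HERPUD1, SDF2L1, PDIA4, DNAJC3, CRELD2 and ATF6. They were taken by gene name from an RNA-seq table of 26443 genes with values, and all 10 were found and passed the filter on low values, among 12715 genes tested. The cells were LNCaP, an androgen-responsive line of human prostate cancer cells, of labelled genotype WT, grown in RPMI. They were infected for 4 to 5 days with lentivirus carrying a hairpin against PALI1 (shPALI1), G9a (shG9a), JARID2 (shJarid2) or SUZ12 (shsuz12), or with the control hairpin vector pLKO. Each of the 5 groups had 3 libraries, 15 in all. SUZ12 is a core subunit of the histone methyltransferase complex PRC2, JARID2 and PALI1 are accessory subunits of it, and G9a is a histone H3 lysine 9 methyltransferase encoded by EHMT2. The labels name a single hairpin per target, so loss of the target and other effects of that hairpin cannot be told apart. The labels do not say whether the 3 libraries of a group came from separate cultures, so p-values measure the spread between libraries, which may be technical.

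The unfolded protein response raises the folding and disposal capacity of the endoplasmic reticulum (ER) when unfolded proteins collect there. In its best known form the chaperone BiP, encoded by HSPA5, leaves the membrane sensors IRE1, PERK and ATF6. IRE1 then splices XBP1 mRNA into the form that encodes an active transcription factor, PERK phosphorylates the translation factor eIF2 alpha, and ATF6 is cut in the Golgi to free its own transcription factor domain. XBP1 and cleaved ATF6 act on genes of chaperones, folding enzymes and ER-associated degradation. Secretory cells such as those of the prostate epithelium use this machinery heavily. Values here are RPKM (reads per kilobase of gene model, scaled to the depth of the library) per gene, so spliced and unspliced XBP1 are counted together, and cleavage of ATF6 protein is not measured.

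The libraries held about 10560000 to 19360000 reads, judged by the size of the step that 1 read makes in the RPKM of short genes. The gene named in each hairpin was low in its own group: C10orf12, a part of the PALI1 transcript, was at 23.8% of the pLKO mean in shPALI1 cells (LCOR, its other part, at 60%), EHMT2 at 25.7% in shG9a cells, JARID2 at 18.3% in shJarid2 cells and SUZ12 at 12.5% in shsuz12 cells. All 9 luminal prostate markers checked were above 21 RPKM in all 15 libraries. Of 3 basal markers, KRT5 and TP63 were at 0 in 14 libraries, and KRT14 brought the summed level to 3.41 to 4.86 RPKM in shJarid2 cells and at most 0.407 under the other hairpins, against 0.105 to 0.593 in pLKO cells. Of 4 immune markers, PTPRC was at 0 in 14 libraries and CD3E in 15, while CD68 read 2.03 to 4.85 RPKM. The 5 fibroblast markers summed to 1.81 to 2.35 RPKM in shJarid2 cells and 4.99 to 6.18 under the other hairpins, against 4.57 to 5.31 in pLKO cells. Among them DCN was at 0 in 14 libraries, while COL1A1 read 1.14 to 5.45 RPKM over the 15 libraries. Of the markers of plasma and other secretory cells, 3 were in the table and summed to 10.04 to 11.6 RPKM in shPALI1 cells, 24.8 to 31.2 in shG9a cells, 23.9 to 32.7 in shJarid2 cells and 28.2 to 35.2 in shsuz12 cells, against 18.5 to 22.5 in pLKO cells. These sums were mostly SDC1, at 9.4 to 34.5 RPKM over the 15 libraries, while MZB1 reached at most 2.23 and DERL3 at most 0.608. The summed luminal markers were 849.7 to 962 RPKM in shPALI1 cells, 1043 to 1101 in shG9a cells, 1662 to 1956 in shJarid2 cells and 1321 to 1412 in shsuz12 cells, against 2082 to 2303 in pLKO cells. The 3 neuroendocrine markers summed to 12.7 to 14.3 RPKM in shG9a cells and 13.3 to 14.2 in shsuz12 cells. Their sums were 6.80 to 7.78 in shPALI1 cells and 6.76 to 12.1 in shJarid2 cells, against 7.92 to 10.1 in pLKO cells. The 3 endothelial markers summed to 2.34 to 2.48 RPKM in shG9a cells and at most 1.41 under the other hairpins. In pLKO cells the endothelial sum was 0.753 to 0.96. The part of these marker levels in the results below was not tested. In bulk libraries such as these, fewer cells of a kind and less RNA per cell cannot be told apart. Replicate 3 of shJarid2 stood apart from its fellows, with correlations across genes of 0.975 and 0.978 with them, where the pair without it had 0.992. Values without that library are given below where it bears on a result.

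The ER stress response element (ERSE) is the DNA element through which ATF6 and XBP1 act together with the factor NF-Y, and 6 of the 10 members carry it or its shorter form ERSE-II in the 300 bases around their start. The promoters of 4 members that differ in how they moved are printed, and the part of these elements in the changes was not tested. They are from RefSeq (GRCh38.p14), 250 bases before to 50 after the start, 5′ to 3′ on the gene's strand, with the fixed letters of the longest motif in capitals. HSPA5 (chr9:125241294-125241593, minus strand), XBP1 (chr22:28800520-28800819, minus strand) and HERPUD1 (chr16:56931892-56932191, plus strand) hold ERSE or ERSE-II. DNAJB9 (chr7:108569624-108569923, plus strand) holds neither in this window, and its capitals mark the shared core CCACG. The GENCODE genes of DNAJB9, HSP90B1 and CRELD2 begin before their RefSeq windows, that of DNAJB9 at 108569568. Sequence before those GENCODE starts was not searched, so a missing motif holds for the RefSeq start alone.
HSPA5: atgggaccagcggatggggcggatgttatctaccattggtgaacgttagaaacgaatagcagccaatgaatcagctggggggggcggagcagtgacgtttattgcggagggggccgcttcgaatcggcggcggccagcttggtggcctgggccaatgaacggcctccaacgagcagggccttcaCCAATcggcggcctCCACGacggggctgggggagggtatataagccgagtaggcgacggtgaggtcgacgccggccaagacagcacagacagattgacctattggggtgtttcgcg
XBP1: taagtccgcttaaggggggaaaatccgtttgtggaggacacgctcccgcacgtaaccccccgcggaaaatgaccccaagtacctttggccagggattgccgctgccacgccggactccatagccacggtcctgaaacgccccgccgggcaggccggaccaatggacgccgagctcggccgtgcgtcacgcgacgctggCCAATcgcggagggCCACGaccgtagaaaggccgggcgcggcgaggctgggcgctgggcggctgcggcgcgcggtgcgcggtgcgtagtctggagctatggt
HERPUD1: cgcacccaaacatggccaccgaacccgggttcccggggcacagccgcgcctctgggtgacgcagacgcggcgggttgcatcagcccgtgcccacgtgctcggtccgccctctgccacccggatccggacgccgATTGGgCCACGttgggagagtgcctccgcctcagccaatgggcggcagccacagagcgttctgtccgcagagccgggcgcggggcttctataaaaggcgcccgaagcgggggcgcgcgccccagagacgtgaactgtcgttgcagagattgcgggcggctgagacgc
DNAJB9: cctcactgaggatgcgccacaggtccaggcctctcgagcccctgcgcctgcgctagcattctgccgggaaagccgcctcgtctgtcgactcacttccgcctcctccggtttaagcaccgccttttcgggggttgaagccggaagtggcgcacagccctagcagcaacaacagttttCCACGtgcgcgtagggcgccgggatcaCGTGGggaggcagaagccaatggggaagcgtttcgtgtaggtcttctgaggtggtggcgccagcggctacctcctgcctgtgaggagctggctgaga

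Searched on both strands, ERSE (CCAAT and CCACG with any 9 bases, N, between them) stood in the promoters of HSPA5, HSP90B1, XBP1 and CRELD2, which is 4 of 10 members. It stood in 0.0984% of the 13208 promoters of other tested genes. HSP90B1 holds 2 copies, the first 194 bases before its start and the other on the opposite strand 89 bases before it. ERSE-II (ATTGG and CCACG with 1 base, N, between them) stood in 2 members, HERPUD1 and SDF2L1, and in 0.0833% of the other promoters. Both motifs end in CCACG, so each match also counts as a match of the core. The core was in 9 of 10 members, all except ATF6, and in 48.7% of the other promoters. The UPRE motif TGACGTGG, a site of XBP1 and ATF6, was in 0 of 10 members and in 0.886% of the other promoters. RefSeq lists 12 promoters for the 10 members, since XBP1 and PDIA4 have 2 each. The printed sequences show the elements in their setting: in HSPA5 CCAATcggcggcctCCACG begins 66 bases before the start, in XBP1 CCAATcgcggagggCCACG begins 52 bases before it, and in HERPUD1 ATTGGgCCACG begins 117 bases before it. The members were taken as genes of the response in which these elements act, so their shares beside other promoters are a description, not a test. A match of letters says nothing on whether a factor was bound in these cells.

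**Figure D1:**
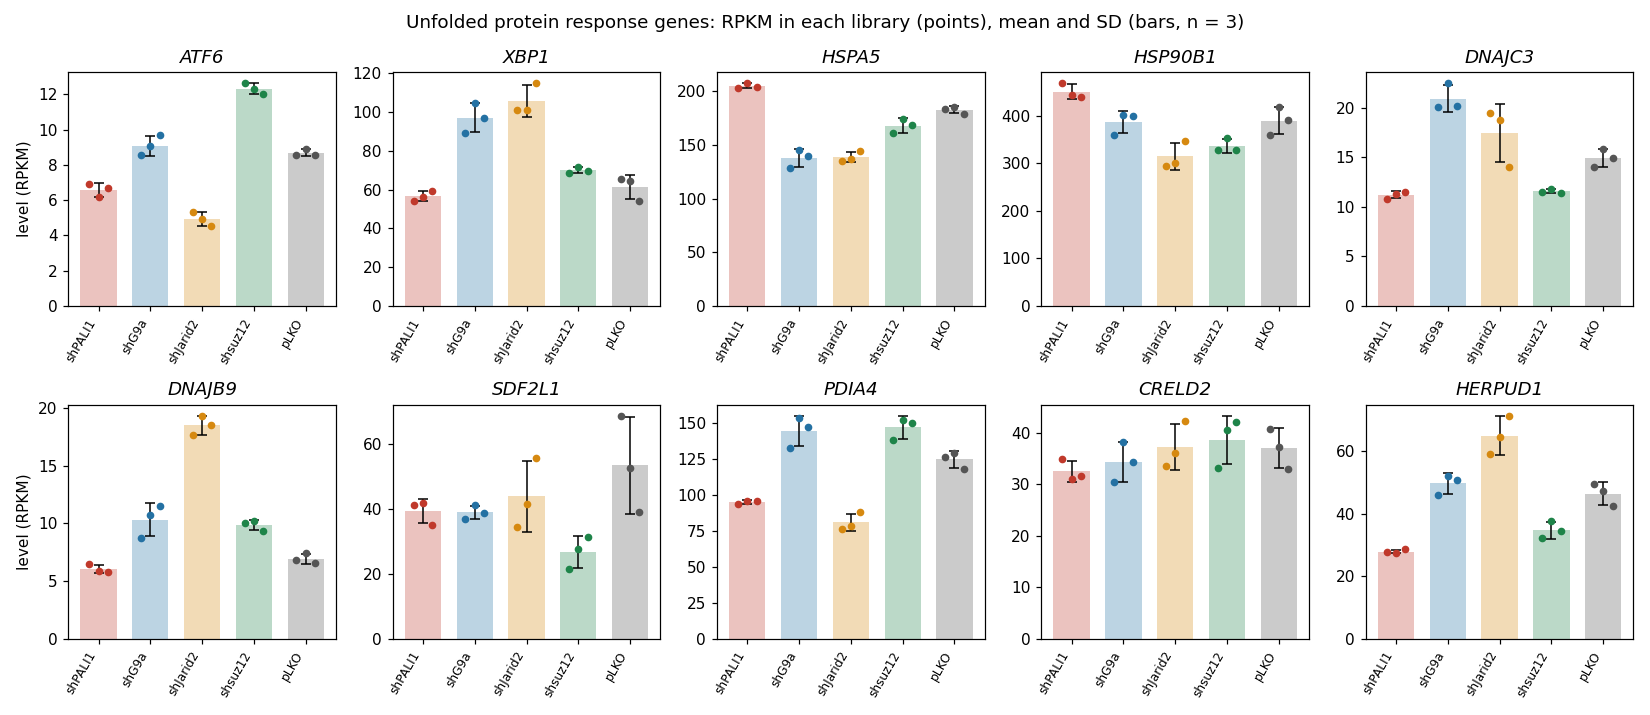
RPKM of the 10 genes in each of the 15 libraries (points), with group means (bars) and SD (error bars, n = 3), in the order shPALI1, shG9a, shJarid2, shsuz12 and pLKO. Group means of DNAJB9 run from 6.05 RPKM in shPALI1 cells to 18.5 in shJarid2 cells, while those of CRELD2 lie between 32.5 and 38.6 and its libraries between 30.4 and 42.2.

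The members differed widely in level. Over all 15 libraries their mean RPKM ran from 8.33 for ATF6, above 50.8% of tested genes, to 376 for HSP90B1, above 99.5%. The fewest reads per kilobase behind a member's value were 56.6, for ATF6. They also differed in how far the groups spread: the highest group mean was 3.06 times the lowest for DNAJB9, 2.50 times for ATF6 and 2.33 times for HERPUD1, against 1.19 times for CRELD2. Against pLKO, 5 of the 10 (HSPA5, HERPUD1, PDIA4, DNAJC3 and ATF6) were called higher under at least 1 hairpin and lower under at least 1 other, beside 23.4% of all tested genes. By limma 0 members were called the same way under all 4 hairpins, beside 5.71% of tested genes, and 1 (CRELD2) was called under none, beside 15.1%. The mean of SDF2L1 was below that of pLKO under all 4 hairpins, but its change was called in shsuz12 cells alone. Calls throughout are at an adjusted p under 0.05 from limma on log2(RPKM + 1), with Benjamini-Hochberg adjustment over all tested genes; changes are in log2 on that scale with the SE.

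Of the sensors, ATF6 is the one among the members; it lies on chromosome 1 from 161766294 to 161964070, plus strand. ATF6 read 6.92, 6.16 and 6.70 RPKM in shPALI1 cells, 8.55, 9.05 and 9.67 in shG9a cells, 5.33, 4.94 and 4.54 in shJarid2 cells and 12.6, 12.3 and 12 in shsuz12 cells, against 8.59, 8.93 and 8.57 in pLKO cells. All shsuz12 libraries were above, and all shPALI1 and shJarid2 libraries below, every pLKO library, while shG9a overlapped pLKO. The log2 change against pLKO was -0.35 ± 0.07 in shPALI1 cells (adjusted p = 0.00082), -0.71 ± 0.07 in shJarid2 cells (adjusted p = 1e-06) and 0.46 ± 0.07 in shsuz12 cells (adjusted p = 5.9e-05). In shG9a cells it was 0.06 (adjusted p = 0.53), so no change was found there. Other genes of the sensor step were named after their values were seen. EIF2AK3, encoding PERK, rose under all 4 hairpins, by 0.35 in shPALI1 cells (adjusted p = 0.0033), 1.01 in shG9a cells, 0.93 in shJarid2 cells and 0.80 in shsuz12 cells, and its mean was 8.23 ± 0.15 RPKM in shG9a cells, against 3.58 ± 0.16 in pLKO cells (SD, n = 3 each). ERN1, encoding IRE1, was not called under any hairpin in the limma fit (adjusted p of 0.18 to 0.47). In fits of each comparison's 6 libraries alone ERN1 was called at -0.32 in shPALI1 cells (adjusted p = 0.019), 0.40 in shG9a cells (adjusted p = 0.0014) and 0.21 in shsuz12 cells (adjusted p = 0.04). MBTPS2, the site-2 protease that cuts ATF6, fell to 6.6 RPKM in shPALI1 cells, 5.61 in shJarid2 cells and 7.20 in shsuz12 cells, against 16.2 in pLKO cells, where each change was called, and was 17.1 RPKM in shG9a cells, where it was not (adjusted p = 0.55). MBTPS1, the site-1 protease, changed by -0.31 in shPALI1 cells (adjusted p = 0.0021) and -0.43 in shJarid2 cells (adjusted p = 0.00011). In shsuz12 cells MBTPS1 went the other way from MBTPS2, at 0.18 (adjusted p = 0.034), and in shG9a cells it was not called (adjusted p = 0.2). Without replicate 3 of shJarid2, ERN1 was called higher in shJarid2 cells, at 0.70 (adjusted p = 8e-06).

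XBP1 (chromosome 22 from 28794555 to 28800597, minus strand), the transcription factor whose mRNA IRE1 splices, had its highest values under shJarid2 and shG9a. XBP1 read 54.3, 56.1 and 59.4 RPKM in shPALI1 cells, 89.4, 105 and 97.1 in shG9a cells, 101, 101 and 115 in shJarid2 cells and 68.6, 71.5 and 69.5 in shsuz12 cells, against 65.2, 64.4 and 54.3 in pLKO cells. Libraries of shG9a, shJarid2 and shsuz12 lay above all pLKO libraries, and shPALI1 overlapped them. The log2 change was 0.66 ± 0.08 in shG9a cells (adjusted p = 2.6e-05) and 0.78 ± 0.08 in shJarid2 cells (adjusted p = 3.4e-06), against -0.11 in shPALI1 cells (adjusted p = 0.32). In shsuz12 cells it was 0.19 (adjusted p = 0.068); it was called without pLKO replicate 1, at 0.24 (adjusted p = 0.046), and with median ratio scaling, TPM or quantile normalization, at 0.28 to 0.36 (adjusted p of 0.00037 to 0.0064), and was 0.11 without pLKO replicate 3 (adjusted p = 0.29).

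DNAJB9 (chromosome 7 from 108569568 to 108574850, plus strand), a DnaJ co-chaperone of BiP that also restrains IRE1, had the widest spread of group means among the members. DNAJB9 read 6.46, 5.90 and 5.80 RPKM in shPALI1 cells, 8.74, 10.8 and 11.5 in shG9a cells, 17.7, 19.3 and 18.5 in shJarid2 cells and 10.1, 10.2 and 9.36 in shsuz12 cells, against 6.79, 7.42 and 6.59 in pLKO cells. All libraries of shG9a, shJarid2 and shsuz12 were above pLKO, and those of shPALI1 were below it, without overlap. The log2 change was 0.51 ± 0.09 in shG9a cells (adjusted p = 0.00032), 1.30 ± 0.09 in shJarid2 cells (adjusted p = 3.5e-08) and 0.45 ± 0.09 in shsuz12 cells (adjusted p = 0.00051), and -0.17 in shPALI1 cells (adjusted p = 0.13). The level in shJarid2 cells was 267% of the pLKO mean. PNPLA8 and THAP5, on the opposite strand, share up to 183 of the 2837 exon bases of DNAJB9 in GENCODE; whether reads were counted by strand is not given in the sources used here. THAP5 rose by 0.41 in shJarid2 cells (adjusted p = 0.0013), and PNPLA8 fell by 0.46 there (adjusted p = 0.00054).

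Among the chaperones, HSPA5 (chromosome 9 from 125234853 to 125241330, minus strand) read 203, 208 and 204 RPKM in shPALI1 cells, 129, 145 and 140 in shG9a cells, 135, 137 and 144 in shJarid2 cells and 161, 175 and 168 in shsuz12 cells, against 184, 185 and 179 in pLKO cells. All shG9a, shJarid2 and shsuz12 libraries were below, and all shPALI1 libraries above, every pLKO library. HSPA5 fell by 0.40 in shG9a cells (adjusted p = 0.00014; by 0.26 with quantile normalization) and by 0.40 in shJarid2 cells (adjusted p = 0.00011), with an SE of 0.06. The rise of 0.16 in shPALI1 cells (adjusted p = 0.047) was lost without any 1 of the 6 libraries, at adjusted p of 0.079 to 0.13. The change of -0.12 in shsuz12 cells was not called (adjusted p = 0.12), and it was 0.06 with quantile normalization (adjusted p = 0.5). HSP90B1, encoding the client chaperone GRP94, lies on chromosome 12 from 103930107 to 103953645, plus strand. Its exons share up to 131 of 4695 bases with neighbours that include C12orf73 on the opposite strand, and its pseudogene HSP90B2P was at 0.191 to 0.564 RPKM. HSP90B1 read 469, 444 and 439.8 RPKM in shPALI1 cells, 359, 402 and 400.4 in shG9a cells, 295, 301 and 348 in shJarid2 cells and 329, 354 and 329 in shsuz12 cells, against 361, 419 and 390.5 in pLKO cells. All shJarid2 libraries were below every pLKO library, as were those of shsuz12, and shPALI1 lay above them. HSP90B1 fell by 0.31 ± 0.09 in shJarid2 cells (adjusted p = 0.0073), though the call was lost in a fit of those 6 libraries alone (adjusted p = 0.098). Without replicate 3 of shJarid2 the change there was -0.38 (adjusted p = 0.00057). The change of HSP90B1 was 0.21 in shPALI1 cells (adjusted p = 0.061), -0.21 in shsuz12 cells (adjusted p = 0.053) and -0.01 in shG9a cells (adjusted p = 0.93). The change of HSP90B1 in shPALI1 cells was called without pLKO replicate 2 (adjusted p = 0.045) and with median ratio scaling (0.024), quantile normalization (0.024) or TPM (0.0082), while without pLKO replicate 1 it was 0.16 (adjusted p = 0.21). Its change in shsuz12 cells was called without pLKO replicate 1 (adjusted p = 0.031), and was -0.07 with quantile normalization (adjusted p = 0.41) and on TPM (0.34).

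**Figure D2:**
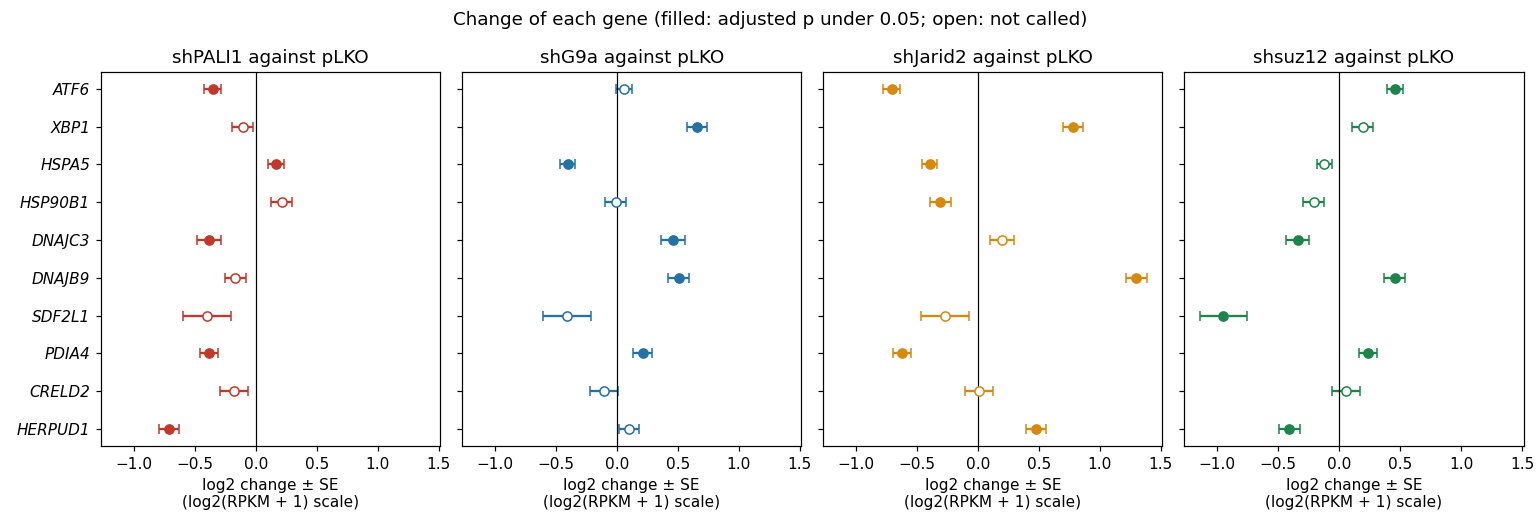
Log2 change against pLKO with SE (bars) of the 10 genes under shPALI1, shG9a, shJarid2 and shsuz12, on the log2(RPKM + 1) scale, with filled symbols for an adjusted p under 0.05. DNAJB9 reaches 1.30 and ATF6 -0.71 under shJarid2, and CRELD2 has no filled symbol.

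Among the disulfide enzymes, PDIA4, encoding the protein disulfide isomerase ERp72, lies on chromosome 7 from 149003062 to 149028641, minus strand. PDIA4 read 93.4, 95.8 and 95.9 RPKM in shPALI1 cells, 133, 153 and 147 in shG9a cells, 76.5, 78.1 and 87.7 in shJarid2 cells and 138, 152 and 150.2 in shsuz12 cells, against 127, 129 and 118 in pLKO cells. The shPALI1 and shJarid2 libraries lay below, and the shG9a and shsuz12 libraries above, every pLKO library. PDIA4 fell by 0.39 ± 0.07 in shPALI1 cells (adjusted p = 0.00086) and by 0.62 ± 0.07 in shJarid2 cells (adjusted p = 9.3e-06). It rose by 0.21 in shG9a cells (adjusted p = 0.034) and by 0.23 in shsuz12 cells (adjusted p = 0.016), and with quantile normalization by 0.36 and 0.43. Each rise lost its call in some fits with a library left out. That in shG9a cells was lost without pLKO replicate 1 (adjusted p = 0.056), pLKO replicate 3 (0.12), shG9a replicate 2 (0.14) and shG9a replicate 3 (0.10), and the rise in shsuz12 cells without pLKO replicate 3 (0.062), shsuz12 replicate 2 (0.062) and shsuz12 replicate 3 (0.054). CRELD2, an ER protein with disulfide isomerase activity, on chromosome 22 from 49918167 to 49927540, was called in none of the 4 comparisons. It averaged 32.5 ± 2.0 RPKM in shPALI1 cells, 34.3 ± 3.9 in shG9a cells, 37.3 ± 4.4 in shJarid2 cells and 38.6 ± 4.7 in shsuz12 cells, against 37.0 ± 3.9 in pLKO cells (SD, n = 3), and its range overlapped pLKO under each hairpin. With quantile normalization CRELD2 was called in shsuz12 cells, at 0.24 (adjusted p = 0.026). ALG12, which overlaps it by up to 168 of 5165 exon bases on the opposite strand, rose under all 4 hairpins, by 0.55 to 0.72.

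The co-chaperone DNAJC3, which also inhibits PERK, lies on chromosome 13 from 95677139 to 95794989, plus strand. DNAJC3 read 10.8, 11.3 and 11.5 RPKM in shPALI1 cells, 20.1, 22.5 and 20.2 in shG9a cells, 19.5, 18.7 and 14.1 in shJarid2 cells and 11.5, 11.8 and 11.5 in shsuz12 cells, against 14.1, 15.9 and 15 in pLKO cells. All shG9a libraries were above pLKO, and all shPALI1 and shsuz12 libraries were below it. DNAJC3 rose by 0.46 ± 0.10 in shG9a cells (adjusted p = 0.0017), and fell by 0.38 ± 0.10 in shPALI1 cells (adjusted p = 0.0057) and by 0.34 ± 0.10 in shsuz12 cells (adjusted p = 0.0085). On TPM the fall in shsuz12 cells was 0.22 and was not called (adjusted p = 0.19). In shJarid2 cells the change of 0.20 was not called (adjusted p = 0.10). Replicate 3 read 14.1 RPKM there beside 18.7 and 19.5, and without it the change was 0.34 (adjusted p = 0.00064); with median ratio scaling it was 0.26 (adjusted p = 0.044). SDF2L1, a component of a BiP complex, lies on chromosome 22 from 21642261 to 21644298, plus strand. SDF2L1 read 41.4, 41.8 and 35.0 RPKM in shPALI1 cells, 37.1, 41.2 and 38.9 in shG9a cells, 34.6, 41.5 and 55.9 in shJarid2 cells and 21.5, 27.8 and 31.3 in shsuz12 cells, against 68.9, 52.7 and 39.1 in pLKO cells. Its pLKO libraries ran from 39.1 to 68.9 RPKM, and all 3 shsuz12 libraries lay below them. SDF2L1 fell by 0.95 ± 0.19 in shsuz12 cells (adjusted p = 0.00095). The fall was called under each of 15 alternatives, TPM among them (-1.15 to -0.75). In pLKO cells SDF2L1 ranked with the summed RPKM of all genes, 293663, 285550 and 264926 in replicates 1 to 3. It also did so in shG9a and shJarid2 cells, but not in shPALI1 or shsuz12 cells. The sums in shsuz12 cells were 250161, 262666 and 255906. The part of these sums in the fall was not tested. The changes of -0.40 in shPALI1 cells (adjusted p = 0.12), -0.41 in shG9a cells (adjusted p = 0.10) and -0.27 in shJarid2 cells (adjusted p = 0.27) were not called. These values turned on single libraries: without pLKO replicate 3 they were -0.60 (adjusted p = 0.022), -0.62 (0.019) and -0.47 (0.054), and without pLKO replicate 1 they were -0.20 (0.44), -0.21 (0.41) and -0.07 (0.78). In shJarid2 cells SDF2L1 was at -0.45 without shJarid2 replicate 3 (adjusted p = 0.058) and at -0.11 without shJarid2 replicate 1 (0.67).

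HERPUD1, a membrane protein of ER-associated degradation, lies on chromosome 16 from 56932048 to 56944863, plus strand. HERPUD1 read 27.6, 27.4 and 28.5 RPKM in shPALI1 cells, 45.9, 52.1 and 50.9 in shG9a cells, 59.0, 64.5 and 71.3 in shJarid2 cells and 32.1, 37.6 and 34.3 in shsuz12 cells, against 49.6, 47.1 and 42.3 in pLKO cells. All shJarid2 libraries were above pLKO, all shPALI1 and shsuz12 libraries below it, and shG9a overlapped it. HERPUD1 fell by 0.71 ± 0.08 in shPALI1 cells (adjusted p = 1.5e-05) and by 0.41 ± 0.08 in shsuz12 cells (adjusted p = 0.001; by 0.22 with quantile normalization), and rose by 0.48 ± 0.08 in shJarid2 cells (adjusted p = 0.00032). In shG9a cells the change was 0.10 (adjusted p = 0.38), and it was 0.21 and called with quantile normalization (adjusted p = 0.0089) and on TPM (0.011).

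By comparison, the members called against pLKO, which all 4 comparisons share as control, are set beside the shares of all tested genes. In either direction the member shares were not far from these, and with 10 members the split into higher and lower is coarse. In shPALI1 cells 1 member was called higher and 4 lower, beside 16.5% and 25.1% of tested genes. In shG9a cells 4 were higher and 1 lower, beside 18.4% and 24.7%. In shJarid2 cells 3 were higher and 4 lower, beside 23.8% and 27.2%. In shsuz12 cells 3 were higher and 3 lower, beside 21.1% and 32.8%. The member counts of 5, 5, 7 and 6 of 10 called in either direction stand beside 41.6%, 43.1%, 51.0% and 53.9% of all tested genes. Read against that background, these counts are not a result about the members. A change of at least 1.5-fold was called for 1, 1, 4 and 1 members, beside 13.2%, 13.3%, 20.0% and 21.0%. The median change of the members was -0.27 in shPALI1 cells, 0.08 in shG9a cells, -0.13 in shJarid2 cells and -0.03 in shsuz12 cells, beside -0.05, -0.04, -0.04 and -0.08 over all tested genes. Among all tested genes the share of calls that were higher depended on scaling: against pLKO it was 42.7% in shG9a cells and 39.1% in shsuz12 cells in the limma fit, and 58.0% and 53.3% on TPM.

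In the 6 contrasts between hairpins, which use no pLKO library, 2 members were higher and 6 lower in shPALI1 cells than in shG9a cells, beside 24.1% and 24.1% of tested genes (48.2% in either direction). Against shJarid2 cells 4 were higher and 4 lower in shPALI1 cells, beside 30.5% and 31.8% (62.3%), and against shsuz12 cells 3 were higher and 5 lower, beside 30.9% and 25.0% (55.9%). In shG9a cells 4 were higher and 2 lower than in shJarid2 cells, beside 27.2% and 28.6% (55.8%), and 4 higher and 2 lower than in shsuz12 cells, beside 25.8% and 19.8% (45.6%). In shsuz12 cells 3 were higher and 5 lower than in shJarid2 cells, beside 25.2% and 33.8% (59.0%), and with quantile normalization or on TPM 5 were higher and 5 lower. The call of HSP90B1 in shPALI1 against shG9a cells was lost without any 1 of the 6 libraries (adjusted p of 0.060 to 0.17). HERPUD1 was called in all 6 of these contrasts and CRELD2 in 0 by limma.

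**Figure D3:**
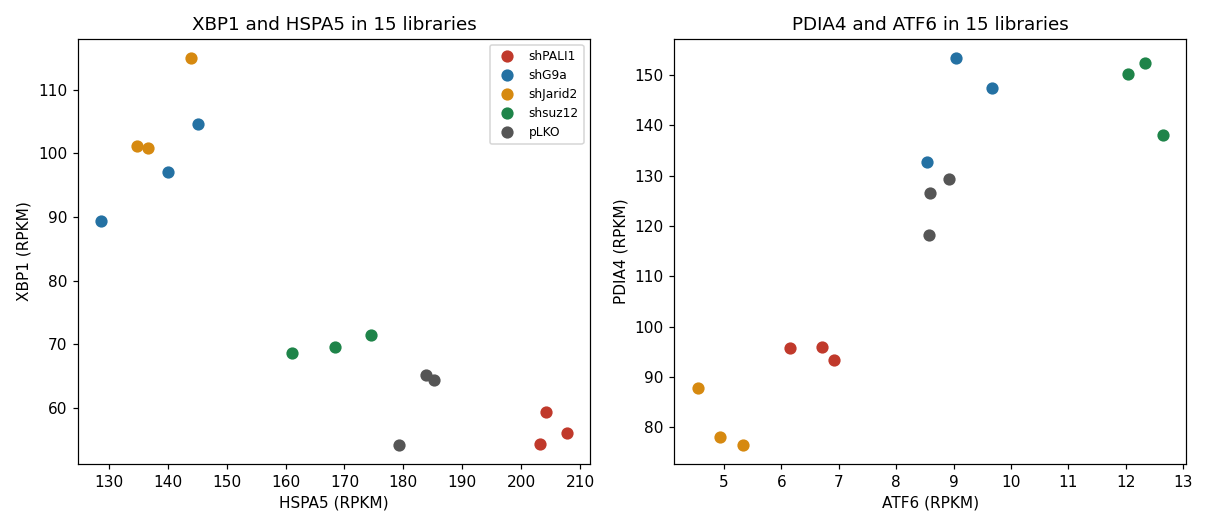
XBP1 against HSPA5 (left) and PDIA4 against ATF6 (right), in RPKM, 1 point per library, coloured by group. High XBP1 in shG9a and shJarid2 cells stands beside the lowest HSPA5, while PDIA4 and ATF6 are lowest together in shJarid2 cells.

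The order of the 5 group means matched for some pairs. ATF6 and PDIA4 both ran shsuz12, shG9a, pLKO, shPALI1 and shJarid2 from high to low, and XBP1 and DNAJB9 both ran shJarid2, shG9a, shsuz12, pLKO and shPALI1. By the adjusted p of the same fit, some neighbours in these orders were not called as different. They were shG9a and pLKO for ATF6 (0.53), shsuz12 and shG9a for PDIA4 (0.81), and shG9a and shsuz12 (0.64) as well as pLKO and shPALI1 (0.13) for DNAJB9. For XBP1 they were shJarid2 and shG9a (0.24), shsuz12 and pLKO (0.068), and pLKO and shPALI1 (0.32). Among neighbours in the order of XBP1, only the step between shG9a and shsuz12 was called (0.00043). Beyond neighbours, shsuz12 was also called above shPALI1 for XBP1 (0.0072). HSP90B1 and CRELD2 had no neighbouring means that differed by that measure. Ratios within a library are not touched by a scaling with a single factor per library, though quantile normalization would change them. DNAJB9 per 100 RPKM of HSPA5 was 2.95 ± 0.19 in shPALI1 cells, 7.47 ± 0.72 in shG9a cells, 13.4 ± 0.68 in shJarid2 cells and 5.88 ± 0.35 in shsuz12 cells, against 3.79 ± 0.19 in pLKO cells (SD, n = 3). XBP1 per 100 HSPA5 was 27.6 ± 1.3 in shPALI1 cells, 70.3 ± 1.5 in shG9a cells, 76.2 ± 3.2 in shJarid2 cells and 41.6 ± 0.88 in shsuz12 cells, against 33.5 ± 2.8 in pLKO cells. Of the 4 members with ERSE, HSPA5 and XBP1 moved opposite ways in shG9a and shJarid2 cells. HSP90B1 was called lower in shJarid2 cells (adjusted p = 0.0073) but not called in shG9a cells (adjusted p = 0.93), and CRELD2 was called under no hairpin. The part of the element in these changes was not tested. PDIA4 per 100 HSP90B1 was 21.1 ± 1.0 in shPALI1 cells, 37.3 ± 0.73 in shG9a cells, 25.7 ± 0.43 in shJarid2 cells and 43.6 ± 1.9 in shsuz12 cells, against 32.0 ± 2.6 in pLKO cells.

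The genes that act beside the members were followed through 5 lists of 92 genes, 91 of them tested. Of 22 other ER chaperones and foldases, 3 were called higher and 6 lower in shPALI1 cells, 10 and 3 in shG9a cells, 10 and 5 in shJarid2 cells and 4 and 6 in shsuz12 cells. These and the list counts that follow stand beside 16.5% of all tested genes called higher and 25.1% lower in shPALI1 cells, 18.4% and 24.7% in shG9a cells, 23.8% and 27.2% in shJarid2 cells and 21.1% and 32.8% in shsuz12 cells. FKBP14, a prolyl isomerase of the ER, rose under all 4 hairpins, to 5.75 ± 0.38 RPKM in shPALI1 cells and 5.89 ± 0.084 in shG9a cells, against 2.86 ± 0.090 in pLKO cells. MANF fell by 1.35 in shJarid2 cells (adjusted p = 6.3e-07), to 40.4 RPKM against 103 in pLKO cells, and NUCB2 rose there by 1.34. CALR, the lectin chaperone calreticulin, fell by 0.78 in shPALI1 cells (adjusted p = 5.7e-05). Of 19 tested genes of ER-associated degradation, 3 were higher and 9 lower in shPALI1 cells, 10 and 2 in shG9a cells, 9 and 6 in shJarid2 cells and 7 and 3 in shsuz12 cells. EDEM1, which helps to deliver misfolded glycoproteins to degradation, fell by 0.84 in shPALI1 cells (adjusted p = 4.4e-05), and SYVN1, encoding the ubiquitin ligase HRD1, rose by 0.42 in shG9a cells (adjusted p = 0.00096). In shJarid2 cells NPLOC4 rose by 0.76 (adjusted p = 2.9e-07) and EDEM3 fell by 1.32 (adjusted p = 1.6e-05).

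Of 19 genes of translocation and signal peptide processing, 2 were higher and 8 lower in shPALI1 cells, 6 and 2 in shG9a cells, 3 and 5 in shJarid2 cells and 4 and 9 in shsuz12 cells. SRPR, a subunit of the signal recognition particle receptor, rose by 1.16 in shG9a cells, 1.08 in shJarid2 cells and 0.86 in shsuz12 cells, and SRPRB, the other subunit, fell by 1.08 in shPALI1 cells. SEC61B fell by 0.99 in shPALI1 cells, and SEC61A1, the channel subunit, rose by 0.48 in shsuz12 cells. Among 15 sensors and transducers, 2 were higher and 5 lower in shPALI1 cells, 4 and 2 in shG9a cells, 3 and 4 in shJarid2 cells and 5 and 5 in shsuz12 cells. CREB3L2, a membrane-bound relative of ATF6, rose by 1.58 in both shG9a and shsuz12 cells, to 12.8 RPKM in each against 3.61 in pLKO cells. In the PERK-ATF4 branch, 8 of 16 genes were higher and 5 lower in shPALI1 cells, 2 and 7 in shG9a cells, 7 and 4 in shJarid2 cells and 2 and 8 in shsuz12 cells. ATF3, a stress-induced transcription factor, rose by 1.83 in shPALI1 cells (adjusted p = 2.1e-09) and by 0.78 in shG9a cells (adjusted p = 7.4e-06). The asparagine synthetase gene ASNS fell by 1.01 in shsuz12 cells (adjusted p = 1.1e-07), and NUPR1 rose by 1.65 in shJarid2 cells (adjusted p = 6.6e-07). ATF4 itself, named after its values were seen, fell by 0.87 in shsuz12 cells (adjusted p = 6.9e-06). In the limma fit ATF4 was not called in shPALI1, shG9a or shJarid2 cells (0.20, 0.01 and 0.24). DDIT3, named likewise, rose by 0.67 in shPALI1 cells (adjusted p = 0.0046) and 0.47 in shJarid2 cells (adjusted p = 0.027). DDIT3 was not called in shG9a (adjusted p = 0.16) or shsuz12 cells (0.42).

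The genes whose profile over the 15 libraries was most like the mean of the members' z scores were SLC39A1 (Pearson r of 0.91), TMEM9, ZDHHC24 and MGAT2 (0.90 each), TMEM42 and CLPTM1L (0.89 each), and MYDGF and AGPAT2 (0.87 each). The members themselves had r with that mean from -0.42 for HSPA5 to 0.68 for HERPUD1, and the libraries within a group share their hairpin, so this likeness is a description.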

How the data were processed

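Total RNA of LNCaP cells was turned into 15 libraries (NEBNext Ultra kit, per the labels' protocols). Reads were aligned with STAR to hg38, per the submitters' processing notes; no source used here states the gene annotation, the counting tool or its strand setting. The deposited table holds RPKM per gene, computed by the authors, with no counts beside it. Low values moved in steps of 1 read (92.7% to 94.8% of values within 0.05 of whole reads), which gave the depth. Levels are set beside each other as RPKM. For changes, limma 3.58.1 was run in R 4.3.3 (moderated test, trend, all 5 groups in a single fit) on log2(RPKM + 1), for genes that reached an RPKM of 1 in 3 or more libraries, with Benjamini-Hochberg adjustment over the 12715 genes and calls under 0.05. A gene list was described by its counts, not tested. The fit was checked on simulated data. Alternatives were other pseudocounts (0.1 and 0.5), a filter on mean RPKM (3 or more) or none, scaling to TPM, by quantiles or by median ratios, a replicate block, the 6 libraries of a comparison alone, and each library left out in turn. The members, lists and tests were chosen with earlier results of these data known. Named genes follow the rule of all members plus, from each list and comparison with pLKO, up to 3 called genes of smallest adjusted p, and the 8 genes most like the members; exceptions are said in the text. Promoter sequences are RefSeq's for GRCh38.p14, and gene positions are GENCODE 29 on GRCh38; for each member entry the script matched the symbol (12 entries for 10 members). Replicate numbers did not pair the libraries: same-number correlations of deviations ran from -0.27 to 0.30, and 7 of 30 were over 0.1.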

Additional observations from a re-analysis of the deposited data

How the results depend on the processing

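Of 23 member calls against pLKO, 18 stood under each of 15 alternatives, and 5 were lost under at least 1; of 17 results not called, 8 were called under at least 1. The 1 member called higher in shPALI1 cells was 0 with no filter, 0 with a mean RPKM of at least 3, 2 with median ratio scaling, 2 with quantile normalization, 2 on TPM and 0 in a fit of the 6 libraries alone, each by limma; leaving out a library gave 0 to 1. The 1 member called lower in shG9a cells became 1 to 2 when a library was left out. The 3 called higher in shsuz12 cells were 5 with quantile normalization. The change of HSPA5 in shG9a cells against shJarid2 cells, -0.01, turned to 0.24 with quantile normalization (adjusted p = 0.011) and to 0.14 on TPM (adjusted p = 0.046); the cause was not tested. TPM moved the median change of all genes by 0.11 for shsuz12 against pLKO, 0.12 for shG9a against shJarid2 and 0.13 for shsuz12 against shJarid2. Among all tested genes, the share of calls that were higher was 38.7% on TPM and 50% in the limma fit for shPALI1 against shG9a, 44.4% and 55.3% for shPALI1 against shsuz12, 62.2% and 48.7% for shG9a against shJarid2, and 57.2% and 42.7% for shsuz12 against shJarid2. With the replicate number as a block, members called higher in shPALI1 cells were 0, against 1 without it. Depth, about 10560000 to 19360000 reads, bounds the precision of the lowest members; ATF6 had the fewest reads per kilobase, 56.6, which is not its total, since gene models differ in length.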
